A study of Homo sapiens with 9 samples.

Results

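The genes described here encode ligands with which a tumor cell can restrain or support T cells and natural killer (NK) cells: CD274 (PD-L1), PDCD1LG2 (PD-L2), CD276 (B7-H3), VTCN1 (B7-H4), ICOSLG, CD83, PVR, NECTIN2, TNFRSF14 and LGALS9. They were taken by symbol from a table of 62710 gene identifiers, each identifier used once, and all 10 were found. The cells were wild-type HT-29 cells, a human colon adenocarcinoma line with epithelial properties. Cells were left non-stimulated or received ADP-heptose or flagellin, each at 500 ng/mL for 2.5 h, and 3 libraries of poly(A) RNA were sequenced per condition. The study's legends describe 3 independent experiments. All libraries came from a monoculture of tumor cells without T cells, so the values describe ligand RNA and not protein or T-cell inhibition.

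Checkpoint ligands sit on the surface of a cell and are read by receptors on lymphocytes. PD-L1 and PD-L2 engage PD-1 and dampen T-cell activation, whereas ICOSLG engages ICOS and supports it. PVR and NECTIN2 are shared by the inhibitory receptor TIGIT and the activating receptor CD226, TNFRSF14 engages BTLA and CD160, and galectin-9 (LGALS9) binds TIM-3. ADP-heptose is a sugar metabolite of bacterial lipopolysaccharide synthesis that is sensed in the cytosol through the kinase ALPK1, and flagellin is sensed at the cell surface by TLR5. Signaling from both sensors activates NF-κB.

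The libraries held 30770448 to 38304035 counts in the non-stimulated and flagellin groups and 50054773 to 58272772 in the ADP-heptose group. Replicate 3 of ADP-heptose stood apart: the SD of log2 differences over genes was 0.378 and 0.383 against its own replicates, while all other pairs within a group lay between 0.135 and 0.196. In every library more genes held 2 counts (2107 to 2342 genes) than 1 count (1177 to 1463 genes). How the mates of a read pair were counted is not stated, and low counts such as those of CD274, which were even in 7 of 9 libraries, cannot be read as so many independent fragments. Epithelial genes were abundant in every library (for example EPCAM, 30326 to 53263 counts), with CDX2 at 17 to 48 counts and CDX1 at 0 to 12. The T-cell genes CD3D, CD3E, CD3G and CD2, the myeloid genes CD1C and CD163, the B-cell gene MS4A1 and the fibroblast gene DCN were at 0 throughout. Of the 3 fibroblast markers COL1A1 was present, at 437 to 622 counts in the non-stimulated and flagellin libraries and 816 to 1019 after ADP-heptose, and COL3A1 had 0 to 2. The markers summed to 12.5 to 14.7 CPM without stimulus, 12.4 to 16 CPM after flagellin and 16.9 to 19 CPM after ADP-heptose, and their part in the ligand results was not tested. Levels below are counts scaled to library size by TMM (CPM), given in the order of replicates 1, 2 and 3, and means carry their SD over 3 libraries. Since RNA of whole cultures was measured, fewer cells expressing a gene and less RNA per cell cannot be told apart.

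The bases before the starts of CD274, CD83 and ICOSLG are shown (RefSeq, GRCh38.p14). CD274 was taken as the PD-L1 gene of the study's title. CD83 and ICOSLG had the smallest edgeR p of the other tested genes after ADP-heptose. These genes also had the highest fitted fold changes of the 8 tested genes. Bases inside exons of GENCODE 29 are left out. CD83 has 2 RefSeq start entries, and part of the window that held the matches described next is shown. The shown part of that window ends at chr6:14117640 and holds only the first bases of the first match. That window lies inside the gene span, downstream of the first annotated start.

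CD274, chr9:5450292-5450502, + strand: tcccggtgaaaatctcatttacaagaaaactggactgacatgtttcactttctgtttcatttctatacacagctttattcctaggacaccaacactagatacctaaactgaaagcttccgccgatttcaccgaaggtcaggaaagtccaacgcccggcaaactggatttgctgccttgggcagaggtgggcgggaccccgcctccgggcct

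CD83, chr6:14117522-14117640, + strand: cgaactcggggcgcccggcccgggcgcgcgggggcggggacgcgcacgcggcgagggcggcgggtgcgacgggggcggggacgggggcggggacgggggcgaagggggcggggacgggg

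ICOSLG, chr21:44240967-44241193, - strand: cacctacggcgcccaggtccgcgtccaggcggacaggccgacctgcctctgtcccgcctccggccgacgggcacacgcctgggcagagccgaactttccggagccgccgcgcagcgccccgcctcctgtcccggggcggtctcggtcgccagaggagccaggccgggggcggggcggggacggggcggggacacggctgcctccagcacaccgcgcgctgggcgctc

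The 10-base NF-κB consensus was searched on both strands in the 250 bases before each RefSeq start, for the 9 genes that the promoter table holds. CD83 carried overlapping matches that merged into 3 stretches, at chr6:14117638-14117647, chr6:14117696-14117707 and chr6:14117721-14117731. In capitals for the matched bases, they read GGGGCGCCCC, GGGGAATCCCCC and GGGAAGTTCCC. Of these, 7 of 10, 12 of 12 and 11 of 11 bases lay inside exons of GENCODE 29, ahead of the RefSeq start. The other CD83 window (chr6:14117006-14117255), directly before the gene's first start, held 0 matches and had a GC content of 34.8%. TNFRSF14 carried GGGGGGCTCCCC at chr1:2556285-2556296, outside exons but inside the gene span (chr1:2555639-2565382). CD276 carried GGGGGCTCCC at chr15:73684702-73684711 in 1 of its 2 windows, with 10 of 10 bases inside an exon, and its other window held 0 matches. No match lay in the windows of CD274, ICOSLG, PVR, NECTIN2, LGALS9 and VTCN1. The windows of CD276 and LGALS9 also lay inside the spans of their genes. Of 35116 RefSeq promoters of the same length, 9.96% held at least 1 match. The GC content of the shown bases was 49.8% for CD274, 89.1% for CD83 and 78.9% for ICOSLG, against a mean of 57.2% over the full windows of all promoters.

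**Figure D1:**
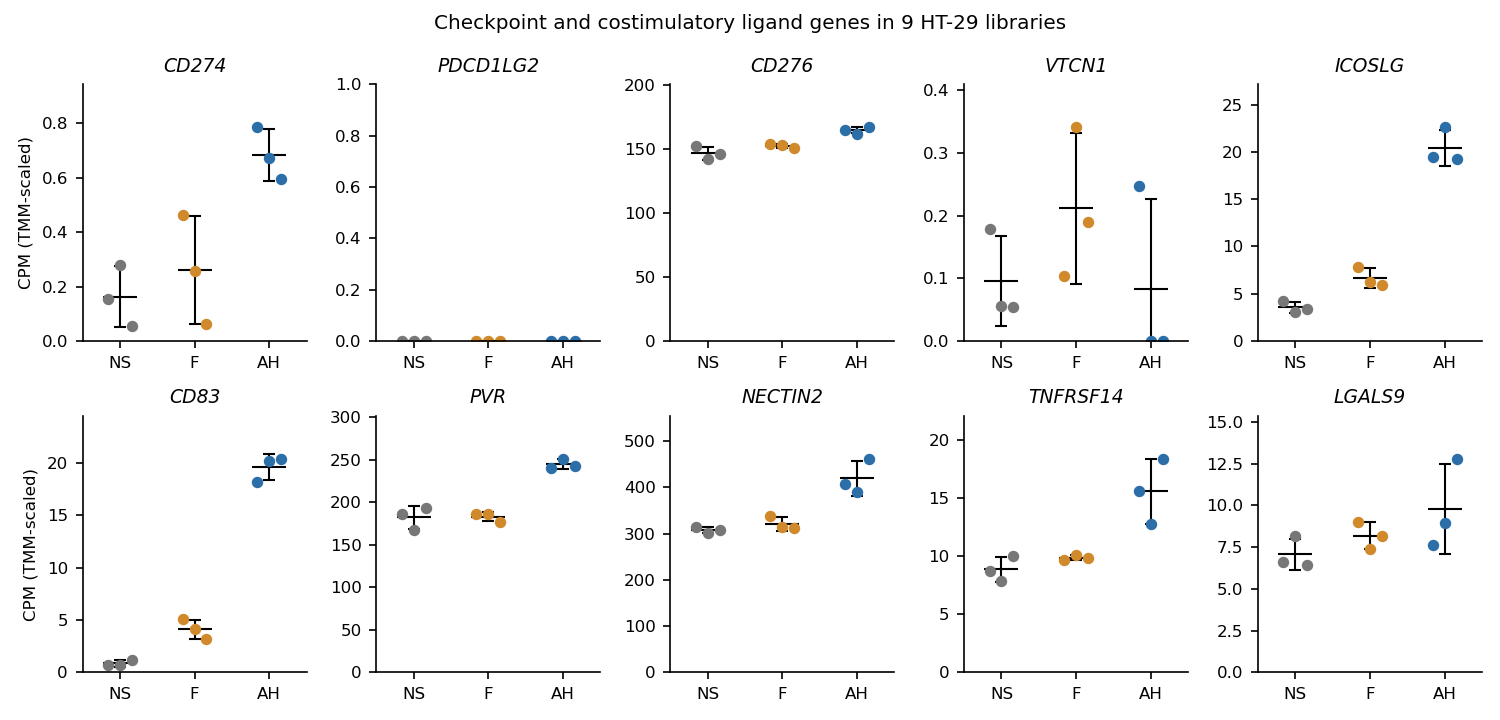
Level of each of the 10 ligand genes (vertical axes, TMM-scaled CPM, each from 0) in non-stimulated (NS), flagellin (F) and ADP-heptose (AH) libraries. Points are libraries, lines are group means and bars are ± SD (n = 3). CD83, ICOSLG, PVR, NECTIN2, TNFRSF14, CD276 and CD274 had all 3 ADP-heptose libraries above all non-stimulated ones, and PDCD1LG2 was at 0 throughout.

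To ask which ligands respond to ADP-heptose, the ADP-heptose libraries were compared with the non-stimulated ones. The costimulatory and maturation genes CD83 and ICOSLG rose most, to 22.8 and 5.76 times the non-stimulated level. TNFRSF14, NECTIN2 and PVR rose by factors of 1.75, 1.36 and 1.34, and CD274 rose 4.2-fold from a few reads. CD276 and LGALS9 did not pass the test, and PDCD1LG2 and VTCN1 were too low to be tested. In all, 6 of the 8 tested genes were called higher (edgeR quasi-likelihood test, Benjamini-Hochberg adjusted p under 0.05 over 17412 genes) and 0 were called lower, where 7.48% of all tested genes were called higher and 4.42% lower. With a 2-fold threshold added, 3 of the 8 were called higher against 2.89% of all genes. No fitted change of the 8 was below 0: at an unadjusted p under 0.05, 8 were higher and 0 lower, and DESeq2 called 7 higher (CD276 besides the 6) and 0 lower. DESeq2 called 2636 of all 17412 tested genes, higher and lower together. The share of all genes at the unadjusted p is not given here, so that count has no background beside it. The median log2 fold change of the 8 genes was 0.64, against 0.01 over all tested genes. CD274 was among the tested genes only because its 3 ADP-heptose libraries passed the filter on low counts, so these counts over tested genes are descriptions.

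After flagellin, CD83 and ICOSLG were the tested ligands called higher. CD83 rose 4.84-fold and ICOSLG 1.88-fold, 6 of the 8 tested genes did not pass the test, and 0 were called lower by edgeR or DESeq2 or at an unadjusted p under 0.05. Of all tested genes 0.368% were called higher and 0.0115% lower. With the 2-fold threshold 1 of the 8 genes (CD83) was called, against 0.212% of all genes. The median log2 fold change was 0.18 for the 8 genes and 0.00 for all genes.

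When the stimuli were compared directly, 5 of the 8 tested genes were higher after ADP-heptose than after flagellin (CD83, ICOSLG, TNFRSF14, PVR and NECTIN2), and 0 were lower by edgeR or DESeq2 or at an unadjusted p under 0.05. Over all tested genes the shares were 5.4% higher and 2.76% lower. With the 2-fold threshold 2 of the 8 were called, against 2.06% of all genes. The comparisons share libraries, so their results are not independent of each other. In both comparisons of ADP-heptose, 7 of the 8 tested genes had groups that did not overlap, with ADP-heptose higher. The same held for 15.4% of all tested genes against non-stimulated cells and for 14.2% against flagellin.

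**Figure D2:**
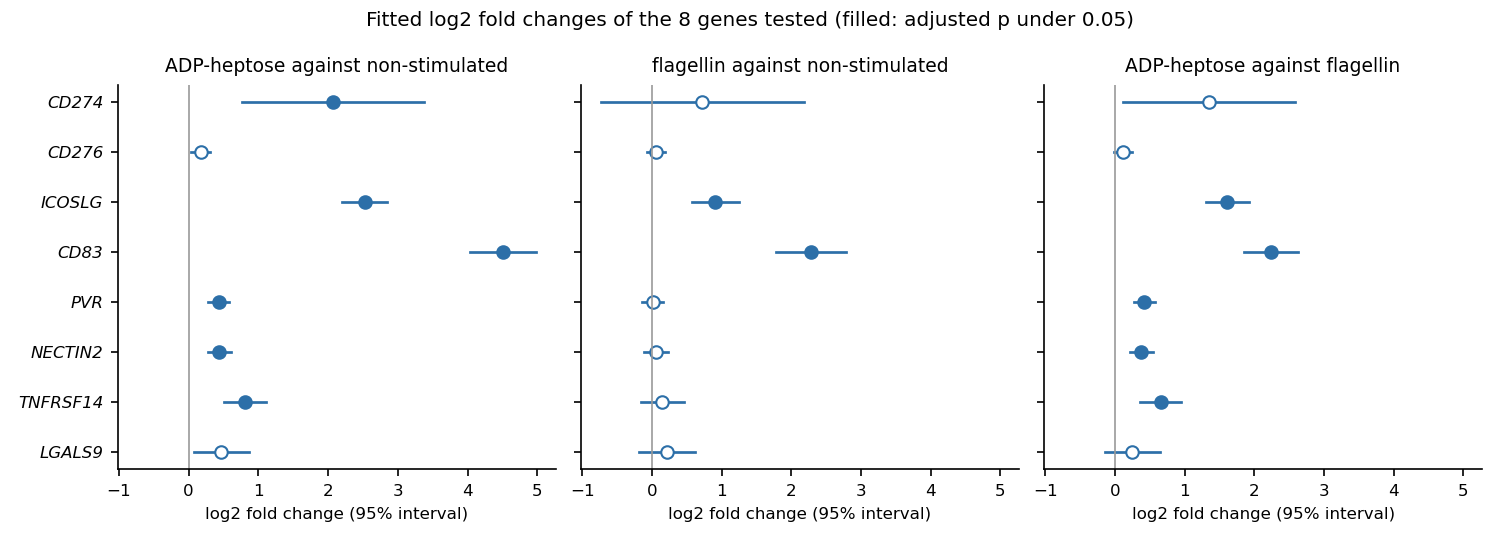
Log2 fold change (horizontal axis) with its 95% interval for the 8 tested genes in the 3 comparisons; filled points passed an adjusted p of 0.05 in edgeR. After ADP-heptose CD83 lay at 4.51 and CD276 at 0.17, while in flagellin cells only CD83 and ICOSLG were filled.

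Among the inhibitory ligands of the B7 family, CD274 was at the edge of detection. The gene lies at chr9:5450503-5470566 on the + strand (GENCODE 29, GRCh38) and had 6, 10 and 2 counts in non-stimulated libraries, 18, 9 and 2 after flagellin and 38, 38 and 27 after ADP-heptose. Scaled, this was 0.154, 0.278 and 0.0537 CPM without stimulus, 0.462, 0.256 and 0.0633 CPM after flagellin and 0.786, 0.674 and 0.596 CPM after ADP-heptose. The 3 ADP-heptose libraries lay above all 6 others, whereas the flagellin and non-stimulated libraries overlapped. Mean levels were 0.162 ± 0.113 CPM in non-stimulated, 0.26 ± 0.199 CPM in flagellin and 0.685 ± 0.0953 CPM in ADP-heptose cells.

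CD274 thus rose by 2.07 on the log2 scale after ADP-heptose (SE 0.60, 95% interval 0.76 to 3.38, edgeR adjusted p = 0.0439). The call was lost when ADP-heptose replicate 1 (adjusted p = 0.0997), ADP-heptose replicate 2 (0.0768), flagellin replicate 2 (0.0699), non-stimulated replicate 1 (0.147) or non-stimulated replicate 3 (0.163) was left out. Without ADP-heptose replicate 3, the library that stood apart, it was kept (log2 2.16, adjusted p = 0.0119). After flagellin the log2 difference of CD274 was 0.72 (interval -0.73 to 2.18, adjusted p = 1), and it ranged from 0.01 (without flagellin replicate 1) to 1.33 (without non-stimulated replicate 2) with 1 library left out. The direct difference between the stimuli was 1.35 (interval 0.12 to 2.58, adjusted p = 0.192) and did not pass the test. It ranged from 0.92 (without flagellin replicate 3) to 2.06 (without flagellin replicate 1). Per kilobase of exon, CD274 was ranked among the 16764 tested genes with an exon length. It stood at percentile 1.16 in non-stimulated cells, 2.61 after flagellin and 8.83 after ADP-heptose.

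PDCD1LG2, the neighbor of CD274 on the same chromosome (chr9:5510570-5571254), had 0 counts in every library. Over all 9 libraries this was 0 of 370865622 counts. For counting error alone, and with counts taken as independent fragments, this allows a level of up to 0.00809 CPM (unscaled). VTCN1, at chr1:117143587-117210960, had 7, 2 and 2 counts in non-stimulated libraries, 4, 12 and 6 after flagellin and 12, 0 and 0 after ADP-heptose. Its groups overlapped, it did not pass the filter on low counts and no test was made.

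CD276 was in contrast an abundant ligand. It was at 152, 142 and 146 CPM in non-stimulated libraries, at 154, 153 and 151 CPM after flagellin and at 165, 162 and 167 CPM after ADP-heptose. All 3 ADP-heptose libraries were above all 6 others, by a narrow margin. The log2 difference between ADP-heptose and non-stimulated cells was 0.17 (SE 0.06, interval 0.04 to 0.30, adjusted p = 0.0987) and did not pass the test. It passed with DESeq2 (0.16, adjusted p = 0.0347) and without ADP-heptose replicate 3 (0.16, adjusted p = 0.0119). Scaled by library totals it was 0.03 (adjusted p = 0.775). The difference after flagellin was 0.06 (interval -0.07 to 0.19, adjusted p = 1), and between the stimuli 0.11 (interval -0.02 to 0.24, adjusted p = 0.343).

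Of the costimulatory ligands, ICOSLG (chr21:44217014-44240966, - strand) was at 4.22, 3.06 and 3.33 CPM without stimulus. After flagellin it was at 7.83, 6.27 and 5.89 CPM, and after ADP-heptose at 19.4, 22.6 and 19.2 CPM. The 3 groups did not overlap, in the order non-stimulated, flagellin, ADP-heptose. ADP-heptose raised ICOSLG by 2.53 on the log2 scale (SE 0.15, adjusted p = 2.1e-07), and the direct difference to flagellin was 1.61 (SE 0.14, adjusted p = 1.0e-05).

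The smaller ICOSLG rise after flagellin was 0.91 on the log2 scale (SE 0.15, interval 0.58 to 1.25, adjusted p = 0.0237). This call was lost without flagellin replicate 1 (adjusted p = 0.171), flagellin replicate 2 (0.0844), non-stimulated replicate 2 (0.165) or non-stimulated replicate 3 (0.162), and with a replicate block (0.055). ICOSLG has a near-identical copy, listed as LOC102723996, which can share its reads. The copy took 14.6% of the joint counts in ADP-heptose replicate 1 and at most 2.21% in any other library. With the copy added to ICOSLG, an alternative chosen after seeing the data, the rise was 2.60 after ADP-heptose (adjusted p = 1.4e-07) and 0.92 after flagellin (adjusted p = 0.0207).

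CD83, an immunoglobulin-like membrane protein best known as a marker of mature dendritic cells (chr6:14117256-14136918), went from a low level to a moderate level. Its counts were 26, 25 and 45 in non-stimulated libraries, 197, 145 and 102 after flagellin and 881, 1137 and 926 after ADP-heptose. In CPM these were 0.665, 0.696 and 1.21, then 5.06, 4.12 and 3.23, then 18.2, 20.2 and 20.4. The 3 groups did not overlap, in the same order as for ICOSLG.

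CD83 rose by 4.51 after ADP-heptose (SE 0.21, adjusted p = 2.6e-08) and by 2.28 after flagellin (SE 0.23, adjusted p = 3.1e-04) on the log2 scale. The direct difference of 2.24 (SE 0.18, adjusted p = 4.6e-06) put ADP-heptose above flagellin. By log2 fold change after ADP-heptose CD83 ranked at 55 among 17412 tested genes. Its level per kilobase of exon moved from percentile 16.4 without stimulus to 38 after flagellin and 67.9 after ADP-heptose. These percentiles are among tested genes with an exon length, and the shift was the widest among the tested ligands. The dendritic cell marker LAMP3 had 2, 4 and 4 counts without stimulus, 10, 6 and 0 after flagellin and 16, 19 and 10 after ADP-heptose. Its flagellin and non-stimulated counts overlapped. The myeloid marker CD14 did not follow this order, with 10, 2 and 0, then 2, 8 and 10, then 6, 0 and 4 counts. CSF1R had 2, 0 and 0 counts without stimulus, 6, 6 and 3 after flagellin and 8, 7 and 4 after ADP-heptose. ITGAX and FCER1G had at most 4 and 8 counts in any library. Summed over 7 myeloid and dendritic markers, the level was 0.167 to 0.358 CPM, 0.412 to 0.625 CPM and 0.461 to 0.682 CPM in these groups, with CD1C and CD163 at 0. Its part in the CD83 result was not tested.

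The ligands of TIGIT and CD226 were the most abundant genes of the set. NECTIN2 (CD112, chr19:44846175-44889228) was at 315, 301 and 309 CPM without stimulus, 339, 314 and 312 CPM after flagellin and 408, 389 and 462 CPM after ADP-heptose. PVR (CD155, the poliovirus receptor, chr19:44643798-44663583) was at 186, 167 and 193 CPM, at 186, 186 and 177 CPM and at 240, 251 and 242 CPM in the same groups. For both genes the ADP-heptose libraries lay above all others, and the flagellin and non-stimulated libraries overlapped.

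NECTIN2 rose by 0.44 after ADP-heptose (SE 0.08, adjusted p = 0.00204) and PVR by 0.43 (SE 0.07, adjusted p = 0.00125), in log2 units. Against flagellin the differences were 0.38 for NECTIN2 (adjusted p = 0.00731) and 0.42 for PVR (adjusted p = 0.0019). After flagellin, NECTIN2 differed from non-stimulated cells by 0.06 (interval -0.11 to 0.23, adjusted p = 1) and PVR by 0.01 (interval -0.14 to 0.16, adjusted p = 1), so a change of the size seen with ADP-heptose lay outside both intervals. PVR shares 121 exon bases with CEACAM19 on the same strand, which itself rose by 0.81 (adjusted p = 0.00326) from 255 to 363 counts without stimulus to 613 to 801 after ADP-heptose. PVR itself had 10982 to 14164 counts in the ADP-heptose libraries.

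TNFRSF14 (HVEM, chr1:2555639-2565382) was at 8.75, 7.88 and 10 CPM without stimulus, at 9.67, 10.1 and 9.85 CPM after flagellin and at 15.6, 12.8 and 18.4 CPM after ADP-heptose. The ADP-heptose libraries varied more among themselves than the others (SD 2.78, against 1.08 and 0.234 CPM) but did not overlap with them. The rise was 0.81 on the log2 scale (SE 0.14, adjusted p = 0.00169), and against flagellin the difference was 0.66 (SE 0.14, adjusted p = 0.00881). After flagellin it was 0.15 (interval -0.15 to 0.46, adjusted p = 1). An antisense gene, TNFRSF14-AS1, shares 831 exon bases with TNFRSF14 and rose by 1.77 (adjusted p = 5.9e-04), from 21 to 32 counts without stimulus to 120 or 121 after ADP-heptose. Because the use of strand in the counting is not stated, reads of the 2 genes cannot be told apart where they overlap. TNFRSF14 itself had 283 to 374 counts without stimulus and 724 to 833 after ADP-heptose.

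LGALS9 (galectin-9, chr17:27629798-27649560) was at 6.6, 8.16 and 6.44 CPM in non-stimulated libraries, at 9.01, 7.41 and 8.17 CPM after flagellin and at 7.63, 8.93 and 12.8 CPM after ADP-heptose. The 3 groups overlapped, and the highest value was that of ADP-heptose replicate 3, the library that stood apart. The log2 difference after ADP-heptose was 0.47 (SE 0.18, interval 0.08 to 0.86, adjusted p = 0.124). Without replicate 3 it was 0.24, and without replicate 1 it was 0.61 and passed (adjusted p = 0.041). After flagellin it was 0.22 (interval -0.18 to 0.62, adjusted p = 1). Reads assigned to the paralogs LGALS9B and LGALS9C made up at most 1.64% of the family's counts in any library.

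Levels were compared between genes per kilobase of exon. Without stimulus the order was NECTIN2 (82.3 ± 1.85 CPM per kb), PVR (51.7 ± 3.71), CD276 (26.5 ± 0.936), TNFRSF14 (1.43 ± 0.174), LGALS9 (1.24 ± 0.166), ICOSLG (0.379 ± 0.0651), CD83 (0.34 ± 0.121), CD274 (0.0394 ± 0.0274) and VTCN1 (0.0318 ± 0.0237). The neighbors TNFRSF14 and LGALS9, ICOSLG and CD83, and CD274 and VTCN1 did not differ beyond their SDs. After ADP-heptose CD83 (7.79 ± 0.481 CPM per kb) came next after CD276, above TNFRSF14 (2.51 ± 0.447), ICOSLG (2.19 ± 0.201) and LGALS9 (1.71 ± 0.471), and the last 3 did not differ beyond their spread. NECTIN2, PVR and CD276 together supplied 92.4% to 96.9% of the summed CPM of the 10 genes in every library. That sum was 630.5 to 673.2 CPM without stimulus, 667.5 to 711.8 CPM after flagellin and 867 to 943.2 CPM after ADP-heptose.

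**Figure D3:**
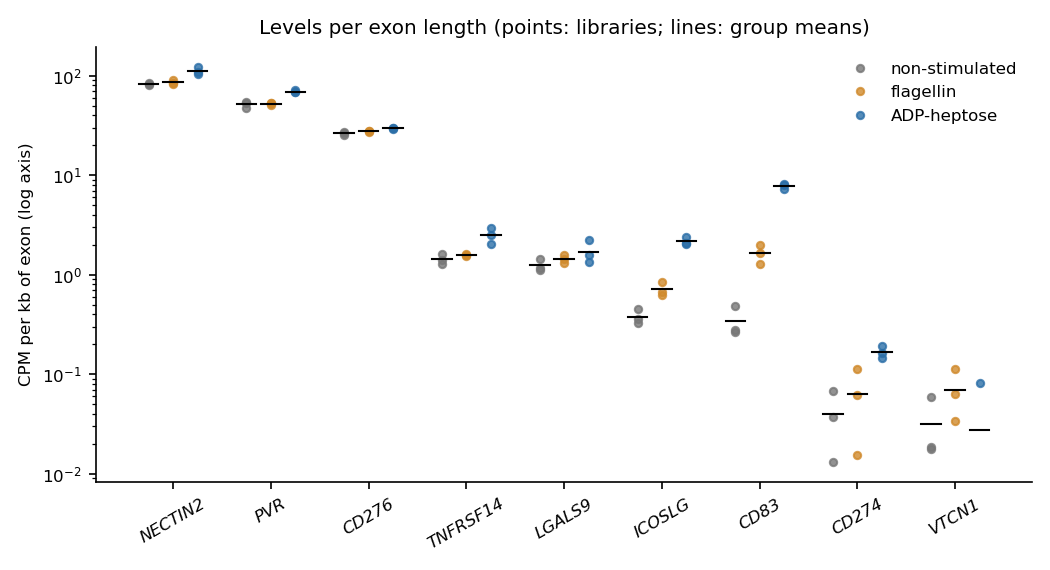
CPM per kilobase of exon (vertical axis, log scale) of 9 ligand genes, ordered by their non-stimulated level; points are libraries and black lines are means of 3. PDCD1LG2 and the 2 ADP-heptose libraries of VTCN1 at 0 cannot be drawn on this axis. NECTIN2, PVR and CD276 had group means of 26.5 CPM per kb or more, and CD83 passed TNFRSF14, LGALS9 and ICOSLG after ADP-heptose.

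Other surface ligands of lymphocytes were examined as a list of 31 genes, of which 23 were tested. After ADP-heptose 9 were called higher and 0 lower by edgeR (median log2 0.16, against 0.01 over all genes), after flagellin 2 were higher and 0 lower (0.08 against 0.00), and 4 were higher and 0 lower after ADP-heptose than after flagellin. The shares called higher over all tested genes were 7.48%, 0.368% and 5.4%, and those called lower were 4.42%, 0.0115% and 2.76%. At an unadjusted p under 0.05, 12 genes were higher after ADP-heptose and 2 lower (BTNL9 and NECTIN3). After flagellin 5 were higher and 1 lower (NECTIN3), and between the stimuli 8 were higher and 0 lower. DESeq2 called 8, 2 and 4 higher and 2, 0 and 0 lower. The shares of all genes per direction at the unadjusted p and with DESeq2 are not given here, so these counts have no background beside them. ICAM1, the ligand of the integrin LFA-1, had 157 to 197 counts without stimulus, 819 to 1237 after flagellin and 12465 to 17077 after ADP-heptose. It rose by 5.97 (adjusted p = 6.2e-12) and 2.62 (adjusted p = 6.6e-08) on the log2 scale. TNFSF18, the ligand of the costimulatory receptor GITR, had 0 counts in all non-stimulated libraries, 16, 13 and 5 after flagellin and 67, 78 and 54 after ADP-heptose. Over a floor of 3 counts per library, the mean of TNFSF18 was 16.4-fold higher after ADP-heptose and 3.9-fold higher after flagellin. The edgeR adjusted p were 4.0e-05 and 0.0187. That floor takes counts as independent fragments, which is not known here. TNFSF18 reached the filter level in 0 non-stimulated, 2 flagellin and 3 ADP-heptose libraries, so it was tested only because of its ADP-heptose libraries. Its flagellin call was lost in 5 of 9 leave-outs (without flagellin replicate 1 or 2 or any 1 non-stimulated library, adjusted p up to 0.0985).

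HLA-E, a ligand of the inhibitory NK-cell receptor NKG2A, rose from a mean of 99.7 to 200 CPM after ADP-heptose (adjusted p = 2.4e-06). The butyrophilins BTN2A2 and BTN2A1 rose by 1.10 (adjusted p = 2.0e-04) and 0.35 (adjusted p = 0.0308). SEMA4A rose by 1.17 (adjusted p = 0.00354), TNFSF9, the ligand of 4-1BB, by 0.82 (adjusted p = 0.0118) and TNFSF15 by 0.41 (adjusted p = 0.0195). NCR3LG1, the ligand of NKp30, passed at 0.76 (adjusted p = 0.0437), but its groups overlapped: it was at 80.4, 80.7 and 38.1 CPM after ADP-heptose and at 41.5, 33 and 42.8 CPM without stimulus. Its call was kept only without ADP-heptose replicate 3 and lost in the other 8 of 9 leave-outs (adjusted p up to 0.165). The call of BTN2A1 was lost without ADP-heptose replicate 1, non-stimulated replicate 1 or 3 or any 1 flagellin library (adjusted p up to 0.137), that of TNFSF15 without ADP-heptose replicate 1 or 2 or non-stimulated replicate 1 or 2 (up to 0.0972), and that of TNFSF9 without non-stimulated replicate 2 (0.0515). Of these 9, ICAM1, TNFSF18, HLA-E and BTN2A2 also passed the direct test between the stimuli. CD86, CD48 and TNFSF14 were at 0 in every library, and CD80 and CD40 had at most 2 counts in any. The related nectins NECTIN1 (0.24, adjusted p = 0.0998), NECTIN3 (-0.35, 0.0635) and NECTIN4 (-0.24, 0.256) and the checkpoint genes VSIR (0.01, 0.97) and HHLA2 (0.12, 0.566) did not pass the test after ADP-heptose.

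Genes that act on PD-L1 transcription or stability were listed as 16 genes, all of them tested. After ADP-heptose 6 were higher and 0 lower (median log2 0.14, against 0.01 over all genes), after flagellin 5 were higher and 0 lower (0.08 against 0.00), and between the stimuli 6 were higher and 1 lower in ADP-heptose cells (0.11 against 0.01). Over all tested genes 7.48%, 0.368% and 5.4% were higher in these comparisons, and 2.76% were lower between the stimuli. DESeq2 gave the same numbers, and an unadjusted p under 0.05 gave 0 lower against non-stimulated cells with either stimulus. IRF1, a transcription factor of the interferon pathway known to drive CD274, rose by 3.61 after ADP-heptose (adjusted p = 1.1e-10) and by 0.53 after flagellin (adjusted p = 0.0236). The NF-κB genes BCL3 and NFKB1 rose by 3.27 (1.7e-10) and 2.01 (2.1e-08) after ADP-heptose and by 0.58 (0.00796) and 0.65 (0.00661) after flagellin. RELA rose by 0.95 after ADP-heptose (adjusted p = 6.7e-07) and differed by 0.11 after flagellin (adjusted p = 1).

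The interferon-γ receptor genes IFNGR1 and IFNGR2 rose by 1.73 (adjusted p = 2.2e-09) and 2.14 (1.7e-09) after ADP-heptose and by 0.55 (9.8e-04) and 0.49 (0.0116) after flagellin. JAK2 (-0.16, adjusted p = 0.544), a kinase that acts downstream of that receptor, and CMTM6 (-0.10, 0.432), which protects PD-L1 protein from degradation, did not pass. MYC was lower after ADP-heptose than after flagellin by a log2 difference of -0.24 (adjusted p = 0.0463), a call kept only without ADP-heptose replicate 3 and lost in the other 8 of 9 leave-outs (adjusted p up to 0.169). Of the flagellin calls, that of IFNGR1 was kept in all 9 leave-outs. Those of IRF1 (adjusted p up to 0.182), IFNGR2 (0.109), NFKB1 (0.0887) and BCL3 (0.0671) were lost without flagellin replicate 1 or 2 or non-stimulated replicate 1 or 2, and all but that of NFKB1 also without non-stimulated replicate 3.

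**Figure D4:**
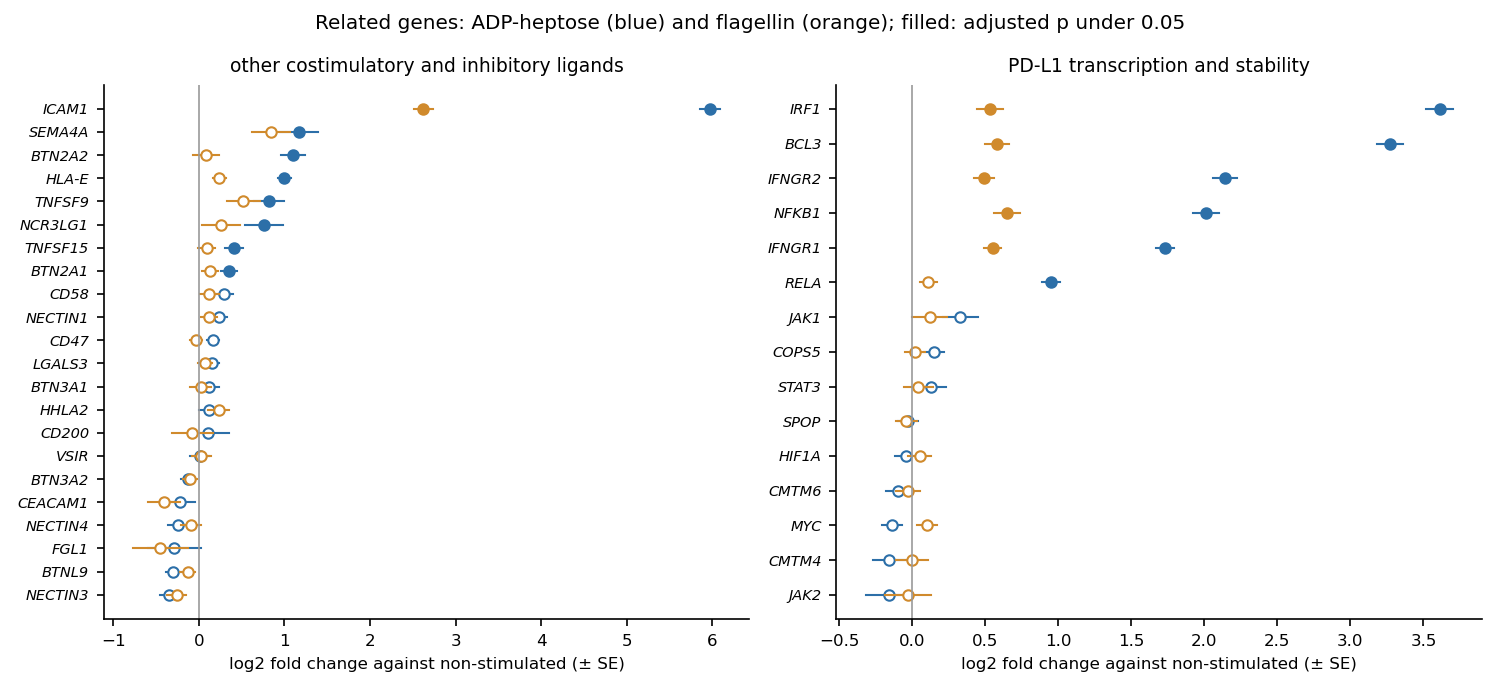
Log2 fold change against non-stimulated cells (horizontal axes, bars ± SE) of 22 tested genes among the other ligands (left) and of 15 of the 16 genes of PD-L1 transcription and stability (right), after ADP-heptose (blue) and flagellin (orange). Filled points passed an adjusted p of 0.05; TNFSF18 is left out because it was at 0 without stimulus. ICAM1 lay at 5.97 and IRF1 at 3.61 after ADP-heptose.

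The lymphocyte receptors of these ligands were close to absent. Of 11 listed, CD28, CTLA4, ICOS and TIGIT had 0 counts in every library, and PDCD1 had 0 to 10. Only PVRIG (-0.95, adjusted p = 0.123) and CD160 (-1.01, 0.268) were high enough to be tested after ADP-heptose, and edgeR and DESeq2 called 0 of the 2 in any comparison. PVRIG was lower at an unadjusted p under 0.05 in both comparisons of ADP-heptose.

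The genes whose log2 CPM followed a ligand most closely over the 9 libraries were listed as a description, among 12168 genes whose log2 CPM averaged 1 or more. For CD83 these were CSF1 (Pearson r 0.995), ICAM1 (0.992) and CLIP2 (0.991), and for ICOSLG they were ECE1 (0.996), SOWAHB (0.996) and EHD4 (0.993). For CD274 they were SEMA4C (0.955), VPS37C (0.945) and GMIP (0.922), whose own log2 fold changes after ADP-heptose were 0.24, 0.17 and 0.29. The 9 points fall into 3 conditions and share the libraries and their scaling.

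In their transcripts the ligands differed in a feature linked to messenger RNA decay. The motif ATTTA, the core of AU-rich elements that promote decay, occurred 14 times in the longest 3′ UTR of CD274 (2704 bases, GENCODE 29), which was 5.18 per kilobase. CD83 held 4 in 1682 bases (2.38 per kilobase) and NECTIN2 held 2 in 849 bases (2.36 per kilobase). CD276, PVR, VTCN1 and PDCD1LG2 held 1 each, ICOSLG held 2 in 6043 bases, and LGALS9 and TNFRSF14 held 0. Over 19116 protein-coding genes 67.7% held at least 1, with a median of 1.49 per kilobase. These matches are letters in the annotation, and decay was not measured.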

How the data were processed

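Poly(A) libraries were read by the authors in pairs of 150 bases, aligned with HISAT2 and assigned to genes with featureCounts. Versions, genome build, annotation, strandedness and the counting of mates are not given in the sources used here. The deposited table holds raw counts per gene and library, unpooled. Identifiers on more than 1 line (232) were used once.

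The main analysis used edgeR 4.0.16 (R 4.3.3) with TMM scaling, filterByExpr (10 counts in a library of median size, 0.266 CPM here, in at least 3 libraries), 1 robust quasi-likelihood fit of 9 libraries and Benjamini-Hochberg adjustment over 17412 genes for each of 3 contrasts. Adjusted p are from this fit unless another tool is named. Alternatives were DESeq2 1.42.0 and a 2-fold threshold (both used in the study's own analysis), other scalings and filters, 6-library fits, a replicate block and fits with 1 library omitted. P-values measure the spread between these libraries. Limits from low counts cover counting error only and take counts as independent fragments.

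The genes and lists were chosen with earlier results of these data known. All 10 ligands are described. Related genes are named when called or when the text is about their list (those too low to test are mostly not named, and values of 1 tested gene are not reported here), and genes of like pattern are the 3 most correlated with CD274, CD83 and ICOSLG. Gene positions, exon lengths and 3′ UTRs are from GENCODE 29, promoters from RefSeq.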

Additional observations from a re-analysis of the deposited data

How the results depend on the processing

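In the 16 to 17 alternatives run for each gene, CD83 kept its calls in all 3 comparisons, and ICOSLG, PVR, NECTIN2 and TNFRSF14 kept theirs after ADP-heptose and against flagellin. CD274 after ADP-heptose passed in 11 of 16 (log2 1.66 to 2.68 with 1 library left out, adjusted p 0.00298 to 0.163 over all). Its difference to flagellin passed in 0 of 16 (adjusted p 0.0995 to 0.439). Library totals in place of TMM moved the median of all genes to -0.13 after ADP-heptose and -0.11 against flagellin. PVR then rose by 0.29 instead of 0.43 (edgeR adjusted p = 0.0217) and NECTIN2 by 0.31 instead of 0.44 (0.00769) after ADP-heptose. Against flagellin they differed by 0.30 instead of 0.42 (0.0263) and 0.26 instead of 0.38 (0.0244). Library totals also reversed 2 uncalled values: CD276 against flagellin became -0.01 and PVR after flagellin became -0.01. With 1 library left out, the latter ranged from -0.05 to 0.05. LGALS9 after ADP-heptose passed with no filter on low counts (0.46, adjusted p = 0.0161). The 2-fold threshold reduced the genes called higher to 3 after ADP-heptose, 1 after flagellin and 2 between the stimuli, and with 1 library left out the flagellin count ranged from 1 to 2.

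With the replicate block 1 gene (CD83) instead of 2 was called after flagellin. ICOSLG was lost (0.91, adjusted p = 0.055), and no other call on the 8 genes changed. Deviations of same-numbered libraries correlated between -0.379 and 0.222, and those of differently numbered libraries between -0.378 and 0.43. With 3 libraries per group and ADP-heptose replicate 3 apart, these values cannot decide whether the numbers are pairs. The main fit had no block. Over all genes, 2072 were called after ADP-heptose, 1421 between the stimuli and 66 after flagellin. With 1 library left out these counts ranged from 1317 (without non-stimulated replicate 3) to 3288, from 912 (without flagellin replicate 2) to 2721 and from 38 (without flagellin replicate 1) to 171, each highest without ADP-heptose replicate 3. The flagellin count was 143 with 6 libraries, 124 with no filter and 106 with DESeq2, and the CD274 flagellin comparison was not tested with 6 libraries.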
